A study of Mus musculus with 12 samples.

Results

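*Alcam* and 9 other genes of the neural immunoglobulin family of cell adhesion molecules, *Mcam*, *L1cam*, *Ncam1*, *Ncam2*, *Nrcam*, *Chl1*, *Cntn1*, *Cntn2* and *Nfasc*, were followed through 12 RNA-Seq libraries of mouse cerebellum and cerebral cortex. The 10 genes were found by their GENCODE name among the 55536 genes of the count files, and each matched 1 row. *Alcam* was chosen because it was higher in *Snx14*-KO than in WT cerebella and not in cortices. Its levels are therefore described without a test wherever genotypes are compared, while the other 9 genes were chosen by family and were tested. The animals were 1 month old. WT mice were compared with littermates lacking SNX14, a sorting nexin of the endoplasmic reticulum, in which CRISPR-Cas9 editing on a C57BL/6J background had removed a base from the coding sequence of *Snx14* and shifted its reading frame in every cell of the body. Each tissue and genotype had 3 libraries, 1 per mouse, and the labels give the same mouse numbers for both tissues. The tissue was dissected whole and holds a mixture of cell types.

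The proteins of this family carry immunoglobulin domains on the outside of the membrane, mostly together with fibronectin type III repeats. They bind the same molecule on a neighbouring cell or a different family member, and so guide axons, bundle them and hold myelin to the axon. ALCAM, also called CD166, binds itself and the lymphocyte receptor CD6. It is found on growing axons and on brain endothelium. In the cerebellum, L1-type molecules and contactins are known from the axons of granule cells, and neurofascin from the initial segment of the Purkinje cell axon.

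The summed gene counts ranged from 16672589 to 19887427 per library. *Snx14* itself was at 63.6 to 67.0 CPM (counts scaled to a common library size) in WT cerebella and at 10.4 to 11.2 CPM in *Snx14*-KO cerebella. In cortex it was at 53.6 to 59.8 CPM in WT and at 7.69 to 8.50 CPM in *Snx14*-KO mice. The markers of cerebellar granule and Purkinje cells were called higher in cerebellum than in cortex for 10 of 10 and 10 of 10 genes, and those of cortical excitatory neurons were called lower for 9 of 10. *Xist* was at 383 to 625 CPM in replicate 1 of each group and at no more than 5.6 CPM in the others, and *Ddx3y* was at no more than 0.159 CPM in replicate 1 and at 69.3 to 91.4 CPM in the others. Each group thus held 1 female and 2 male mice by these genes. Some libraries stood apart by markers of neighbouring tissue. Replicates 1 and 3 of the *Snx14*-KO cerebella held markers of the midbrain tectum, and replicate 2 of the *Snx14*-KO cortices held more transcripts of the meninges. The 8 choroid plexus markers varied most, at 81.9, 2733 and 7407 CPM in WT cerebella 1, 2 and 3 and at 2033, 3208 and 969 CPM in *Snx14*-KO cerebella 1, 2 and 3. In bulk tissue, fewer cells of a type and less RNA per cell cannot be told apart.

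The genes differed widely in abundance. Levels between genes were compared per length, in TPM, transcript abundance scaled to the same total in each library, computed from the counts and the exon length of each gene. *Cntn1*, a membrane-anchored contactin of the paranodal junction beside the node of Ranvier, had the highest level in each of the 4 groups, from 142 ± 8.02 TPM in WT cerebella to 164 ± 2.63 TPM in *Snx14*-KO cortices (SD, n = 3 each). Its libraries did not overlap those of the second gene in any group. In WT cerebella the order below it was *Ncam1*, *Cntn2*, *Nfasc*, *Chl1*, *Nrcam*, *Mcam*, *L1cam*, *Alcam* and *Ncam2*. Of these neighbours, *Ncam1* and *Cntn2*, *Cntn2* and *Nfasc*, *Chl1* and *Nrcam*, and *Mcam* and *L1cam* overlapped in their libraries and cannot be ordered. *Alcam* was at 17.9 ± 1.11 TPM there (SD, n = 3), ninth of the 10, and apart from the genes above and below it.

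In WT cortices, *Alcam* ranked 4 of 10 at 72.3 ± 2.79 TPM (SD, n = 3). Its libraries lay apart from those of *Nfasc* below it and overlapped those of *Ncam1* above it, at 72.9 ± 4.12 TPM. *Nrcam*, second in cortex at 98.3 ± 4.14 TPM (SD, n = 3), was sixth in WT cerebella at 50.6 ± 2.06 TPM (SD, n = 3). *Mcam* was last in both cortical groups. Summed over the 10 genes, the level was 586 ± 19.3 TPM in WT and 593 ± 39.8 TPM in *Snx14*-KO cerebella, and 668 ± 24.0 TPM in WT and 659 ± 23.8 TPM in *Snx14*-KO cortices (SD, n = 3 each). *Alcam* made up 3.05% ± 0.296 of this sum in WT cerebella and 5.81% ± 0.880 in *Snx14*-KO cerebella (SD, n = 3). In cortex its share was 10.8% ± 0.365 in WT and 10.7% ± 0.751 in *Snx14*-KO mice (SD, n = 3). In *Snx14*-KO cerebella, *Alcam* at 34.7 ± 7.42 TPM (SD, n = 3) overlapped *Mcam* and *L1cam* in its libraries and cannot be ordered against them. In *Snx14*-KO cortices it overlapped *Ncam1*, *Nfasc* and *L1cam*.

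**Figure D1:**
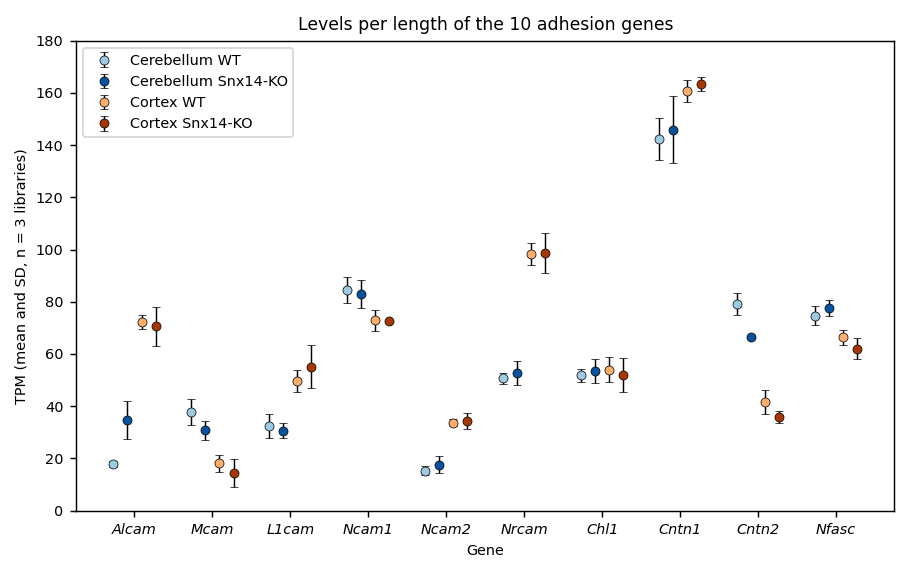
Level per length of the 10 adhesion genes in TPM (y axis), with the mean (point) and SD (bar) of 3 libraries for each tissue and genotype. *Cntn1* is highest in every group. The 2 cerebellar points of *Alcam* are furthest apart relative to their size, which is the difference that chose this gene.

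*Alcam* (ENSMUSG00000022636.13) is a minus-strand gene (chromosome 16, 52248996 to 52454074, GRCm38), and none of its 7121 exon bases overlaps an exon of another gene. After TMM normalization over the 12 libraries, it was at 37.7, 42.2 and 35.7 CPM in WT cerebella 1, 2 and 3. In *Snx14*-KO cerebella 1, 2 and 3 it was at 71.1, 61.5 and 88.0 CPM. The lowest *Snx14*-KO cerebellum thus lay above the highest WT cerebellum. Relative to the WT mean of 38.5 ± 3.31 CPM (SD, n = 3), the *Snx14*-KO mice were at ratios of 1.85, 1.59 and 2.28. The log2 fold change (log2FC) of the groups was 0.95, with a standard error (SE) of 0.130, which is a ratio of 1.93 and a description of the values that chose the gene. These levels rest on 665 to 731 read pairs per WT and 1115 to 1624 per *Snx14*-KO cerebellum.

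In cortex, *Alcam* was at 166, 161 and 162 CPM in the WT mice and at 141, 171 and 162 CPM in the *Snx14*-KO mice. The groups overlapped, with *Snx14*-KO replicate 1 lowest and replicate 2 highest of the 6. The log2FC was -0.04 (SE 0.0783), and it was -0.11 without *Snx14*-KO replicate 2 and 0.030 without *Snx14*-KO replicate 1. The difference between the cerebellar and the cortical value was 0.97 (SE 0.16) in a fit of all 12 libraries. The *Snx14*-KO cerebella did not reach the level of any cortex. Their mean was 46.5% of the mean of *Snx14*-KO cortices, while the WT cerebella were at 23.6% of the WT cortices.

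**Figure D2:**
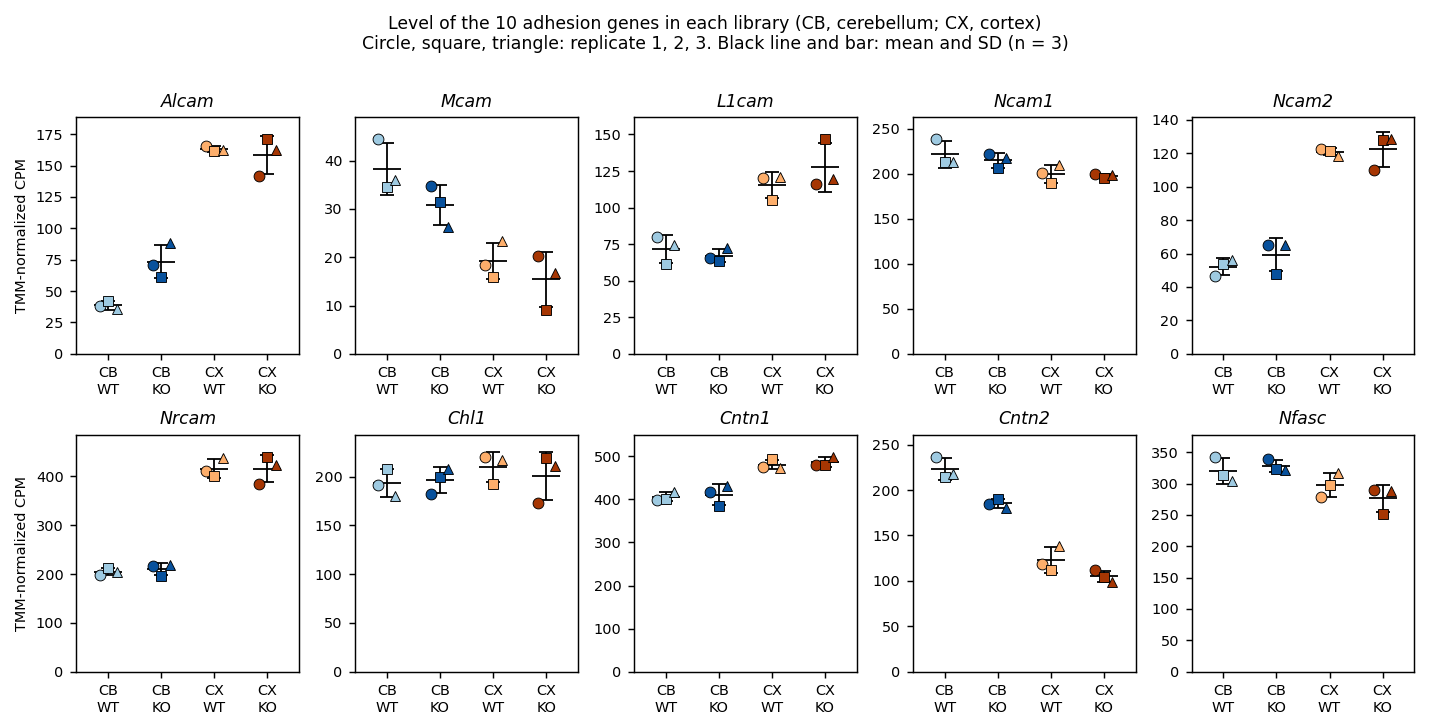
TMM-normalized CPM of each gene in each of the 12 libraries (y axes start at 0 and differ between genes), with the mean and SD of each group of 3 in black. For *Alcam*, the 3 *Snx14*-KO cerebella lie between 61.5 and 88.0 CPM, above the WT cerebella at 35.7 to 42.2 CPM and below all cortices.

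Some marker lists also differed between the cerebella, and part of their genes had been named by the study from these samples. The 9 midbrain tectum markers summed to 30.7 to 33.1 CPM in WT cerebella and to 121, 27.2 and 128 CPM in *Snx14*-KO cerebella 1, 2 and 3. Most of that sum was *Slc17a6*, the gene of a vesicular glutamate transporter. It was at 27.2 to 30.3 CPM in WT cerebella and at 102, 23.3 and 105 CPM in *Snx14*-KO cerebella 1, 2 and 3. The cortices held it at 27.7 to 42.4 CPM, so it was not particular to the tectum. The transcription factor gene *Tfap2d* was at 5.83 and 6.55 CPM in replicates 1 and 3 and at 0 in replicate 2, where *Gata3* was also at 0. *Alcam* in replicate 2 was at 61.5 CPM, and the log2FC of that library alone against the WT mice was 0.68. Without replicate 2 it was 1.05. These are again values that chose the gene, and the part of tectal tissue in them was not tested.

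The 18 markers of meningeal fibroblasts and arachnoid summed to 192 to 365 CPM in WT and to 490 to 523 CPM in *Snx14*-KO cerebella, with a positive log2FC for 17 of 18 genes and a median of 1.14. For 14 of 18, every *Snx14*-KO cerebellum lay above every WT cerebellum, beside 6.22% of all genes, while 0 of 18 passed the test that called 0.00549% of all genes. No marker of this list was at 0 in any cerebellum. In cortex, *Snx14*-KO replicate 2 reached 414 CPM on the same list, against 139 to 195 CPM in all other cortices, and its *Alcam* level of 171 CPM was the highest cortical value, at a ratio of 1.05 to the WT mean. The 16 endothelial and mural markers summed to 302 to 385 CPM in WT and 371 to 441 CPM in *Snx14*-KO cerebella. The 14 microglia and macrophage markers were at 238 to 302 CPM in WT and at 289, 316 and 751 CPM in *Snx14*-KO cerebella 1, 2 and 3, so replicate 3, with the highest *Alcam*, was also highest there. The 12 astrocyte and Bergmann glia markers summed to 8031 to 8712 CPM in WT and 8727 to 9759 CPM in *Snx14*-KO cerebella. The 7 oligodendrocyte precursor markers summed to 167 to 199.6 CPM in WT and to 204 to 266 CPM in *Snx14*-KO cerebella, with replicate 3 highest. For 2 of 7, every *Snx14*-KO cerebellum lay above every WT cerebellum, beside 6.22% of all genes. Of the 7, 0 were called, beside 0.00549% of all genes. The 10 cortical excitatory neuron markers summed to 171 to 187 CPM in WT and to 143 to 172 CPM in *Snx14*-KO cerebella. The 10 Purkinje cell markers summed to 11477 to 12919 CPM in WT and to 11335, 11921 and 9088 CPM in *Snx14*-KO cerebella 1, 2 and 3. Of these, 1 of 10 had a positive log2FC, with a median of -0.09. The part of meningeal, vascular, immune, glial and Purkinje cells in the *Alcam* values was not tested.

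**Figure D3:**
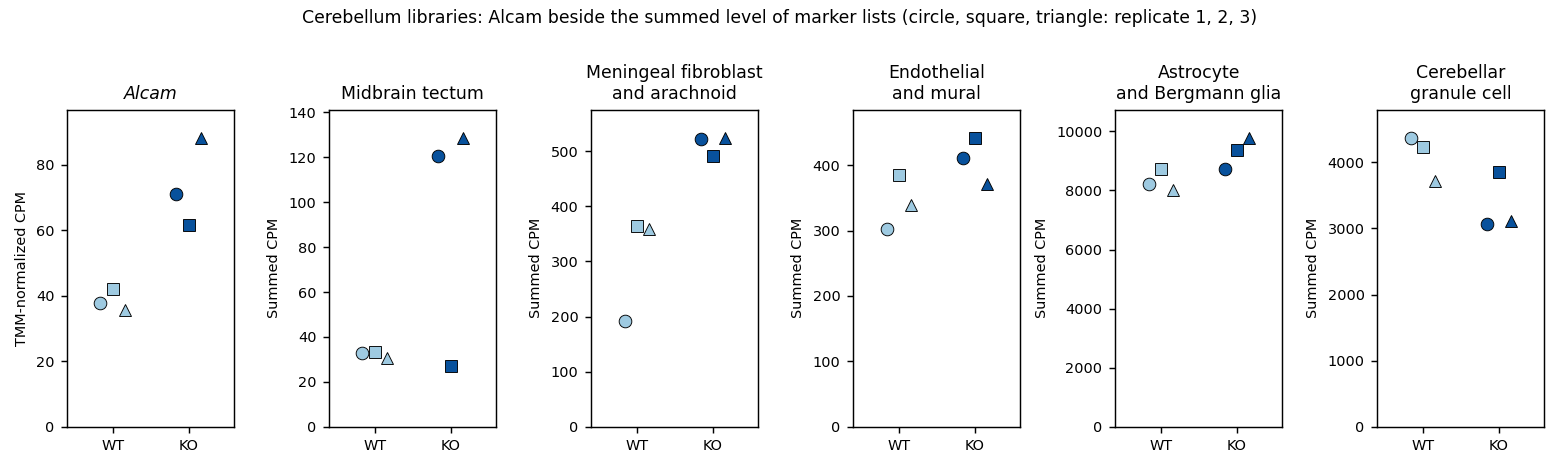
*Alcam* (left, CPM) beside the summed CPM of 5 marker lists in the 3 WT and 3 *Snx14*-KO cerebellum libraries, with y axes from 0. Replicate 2 of the *Snx14*-KO mice (square) is at the WT level for the midbrain tectum list (27.2 CPM) and above the WT libraries for *Alcam* (61.5 CPM) and the meningeal list (490 CPM).

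*Mcam* (ENSMUSG00000032135.15, chromosome 9, 44134469 to 44142727, plus strand), the gene of CD146, an adhesion molecule of endothelial cells, pericytes and smooth muscle, was lower in *Snx14*-KO mice on average in both tissues, without passing the test. In cerebellum it was at 44.5, 34.4 and 36.0 CPM in WT and at 34.7, 31.4 and 26.3 CPM in *Snx14*-KO mice 1, 2 and 3. The groups overlapped because *Snx14*-KO replicate 1 lay above WT replicate 2. The log2FC was -0.30 (SE 0.122, adjusted p = 0.551 by edgeR's quasi-likelihood test). In cortex the levels were 18.4, 15.9 and 23.3 CPM in WT and 20.3, 9.05 and 16.8 CPM in *Snx14*-KO mice, with the lowest value in the *Snx14*-KO replicate rich in meningeal markers. The cortical log2FC was -0.32 (SE 0.236, adjusted p = 0.996) and -0.05 without that library. The markers of endothelial and mural cells, in which *Mcam* is known, had a positive log2FC for 13 of 16 genes in cerebellum and 15 of 16 in cortex. Over all genes, 50.1% and 50% had a log2FC below 0. The medians of the markers were 0.12 and 0.21, and 0 of 16 were called in either tissue, beside 0.00549% and 0.00548% of all genes. The part of vascular cells in the *Mcam* values was not tested.

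The L1 group comprises *L1cam*, its close homolog *Chl1*, *Nrcam* and *Nfasc*, which tie the axonal membrane to ankyrin and spectrin. None of the 4 passed the test in either tissue. *L1cam* (ENSMUSG00000031391.18, chromosome X, 73853778 to 73896105, minus strand) was at 80.2, 61.5 and 74.3 CPM in WT and 65.7, 63.6 and 72.2 CPM in *Snx14*-KO cerebella, giving a log2FC of -0.09 (SE 0.101, adjusted p = 0.928 by the same test), which was -0.19 without WT replicate 2 and -0.012 without WT replicate 1. In cortex it was at 120, 105 and 121 CPM in WT and 116, 147 and 120 CPM in *Snx14*-KO mice, a log2FC of 0.14 (SE 0.0962, adjusted p = 0.996). The highest value belonged to *Snx14*-KO replicate 2, and without it the cortical value was 0.03. Of the exon bases of *L1cam*, 1.36% are shared with *Arhgap4*, and read pairs there were counted for both genes.

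*Nrcam* (chromosome 12, 44328885 to 44601964), which helps to gather sodium channels at nodes, gave no call. Its mean was 205 ± 7.08 CPM in WT and 210 ± 12.2 CPM in *Snx14*-KO cerebella, and 416 ± 18.5 and 416 ± 28.3 CPM in the cortices (SD, n = 3 each). *Chl1* (chromosome 6, 103510586 to 103750211) was at 193 ± 14.4 and 197 ± 13.2 CPM in WT and *Snx14*-KO cerebella and at 210 ± 15.5 and 201 ± 24.4 CPM in the cortices (SD, n = 3 each). In both genes the libraries of the genotypes overlapped in both tissues. *Nfasc* (chromosome 1, 132564690 to 132741797), whose products hold the paranode on the glial side and the node and initial segment on the axonal side, was at 320 ± 20.2 and 328 ± 9.88 CPM in cerebellum and at 298 ± 19.2 and 277 ± 21.8 CPM in cortex (SD, n = 3 each). The counts are sums over all exons and do not separate the glial from the neuronal form of *Nfasc*. Its log2FC was 0.05 (SE 0.0658) in cerebellum and -0.11 (SE 0.0767) in cortex, with adjusted p values of 0.940 and 0.996. The cerebellar value was 0.0089 without WT replicate 3 and 0.091 without WT replicate 1, and the cortical value was -0.043 without *Snx14*-KO replicate 2, the library rich in meningeal markers.

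The neural cell adhesion molecules *Ncam1* and *Ncam2* gave no call either. *Ncam1* (ENSMUSG00000039542.16, chromosome 9, 49502136 to 49798925, minus strand), the carrier of polysialic acid in the brain, was at 239, 213 and 213 CPM in WT and 222, 206 and 217 CPM in *Snx14*-KO cerebella. Its log2FC was -0.03 (SE 0.0686) in cerebellum and -0.02 (SE 0.0658) in cortex. The antisense gene *Gm11149* overlaps 4.81% of its exon bases, and since the counting ignored the strand, reads from these 2 genes cannot be told apart there. *Ncam2* (ENSMUSG00000022762.18), which lies on the same chromosome as *Alcam* (chromosome 16, 81200697 to 81626828, plus strand) and is known from olfactory axons, was at 46.8, 53.5 and 56.2 CPM in WT and at 64.9, 47.9 and 65.2 CPM in *Snx14*-KO cerebella. Replicates 1 and 3 lay above the WT range and replicate 2 inside it, which is the split of the tectal markers. Its log2FC was 0.20 (SE 0.127, adjusted p = 0.790), -0.11 for replicate 2 alone and 0.32 without it. *Nrcam* and *Cntn1* were also split, with *Snx14*-KO replicates 1 and 3 above the WT range and replicate 2 below it. *Nrcam* was at 216, 196 and 218 CPM in *Snx14*-KO cerebella 1, 2 and 3, against 198 to 212 CPM in WT. *Cntn1* was at 418, 384 and 430 CPM, against 400 to 417 CPM in WT. The part of tectal tissue in these splits was not tested.

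Neither of the contactins *Cntn1* and *Cntn2* was called, and *Cntn2* was the one with cerebella that did not overlap between the genotypes. *Cntn2* (ENSMUSG00000053024.14, chromosome 1, 132509427 to 132543256, minus strand), also called TAG-1, sits on axons of developing granule cells and at the juxtaparanode of myelinated axons. It was at 237, 214 and 218 CPM in WT and at 184, 191 and 181 CPM in *Snx14*-KO cerebella, so all *Snx14*-KO libraries lay below all WT libraries. The log2FC was -0.25 (SE 0.0644, 95% interval -0.40 to -0.11), a ratio of 0.839. It did not pass over all genes (adjusted p = 0.290 by edgeR's quasi-likelihood test). By DESeq2 the adjusted p was 0.0421 at a log2FC of -0.26, which is under the size of 0.50 required for a call. *Snx14*-KO replicate 2, which lacked the tectal markers, gave -0.22 alone. The part of tectal tissue in the *Cntn2* values was not tested.

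In cortex, *Cntn2* was at 118, 111 and 139 CPM in WT and 111, 105 and 99.3 CPM in *Snx14*-KO mice, where *Snx14*-KO replicate 1 reached into the WT range. The log2FC was -0.22 (SE 0.0872, adjusted p = 0.996) and -0.13 without WT replicate 3. Averaged over both tissues, a contrast added after these values were seen, *Cntn2* had a log2FC of -0.25 (SE 0.0577, adjusted p = 0.143 by edgeR's quasi-likelihood test and 0.00793 by DESeq2). Both fits of this contrast treat the cerebellum and the cortex of a mouse as independent libraries, although 12 libraries came from 6 mice, so these p values may be too small. The 10 granule cell markers summed to 3719 to 4361 CPM in WT and to 3072, 3852 and 3119 CPM in *Snx14*-KO cerebella 1, 2 and 3. Of these granule cell markers, 0 of 10 had a positive log2FC in cerebellum, with a median of -0.31. For 3 of 10, every *Snx14*-KO cerebellum lay below every WT cerebellum, beside 6.32% of all genes. The 10 oligodendrocyte markers summed to 11138 to 14489 CPM in WT and 11353 to 13152 CPM in *Snx14*-KO cerebella, and in cortex to 8004 to 8362 CPM in WT and 5629 to 8069 CPM in *Snx14*-KO mice. In cortex, 0 of these 10 markers had a positive log2FC, the median was -0.30, and for 7 of 10 every *Snx14*-KO library lay below every WT library, beside 4.67% of all genes. In cerebellum, 1 of 10 was positive and the median was -0.14. Their part in the *Cntn2* values was not tested. *Cntn1* (chromosome 15, 92051165 to 92341967) was at 406 ± 9.82 and 411 ± 23.9 CPM in WT and *Snx14*-KO cerebella and at 481 ± 11.2 and 486 ± 10.9 CPM in the cortices (SD, n = 3 each), and its libraries overlapped in both tissues.

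**Figure D4:**
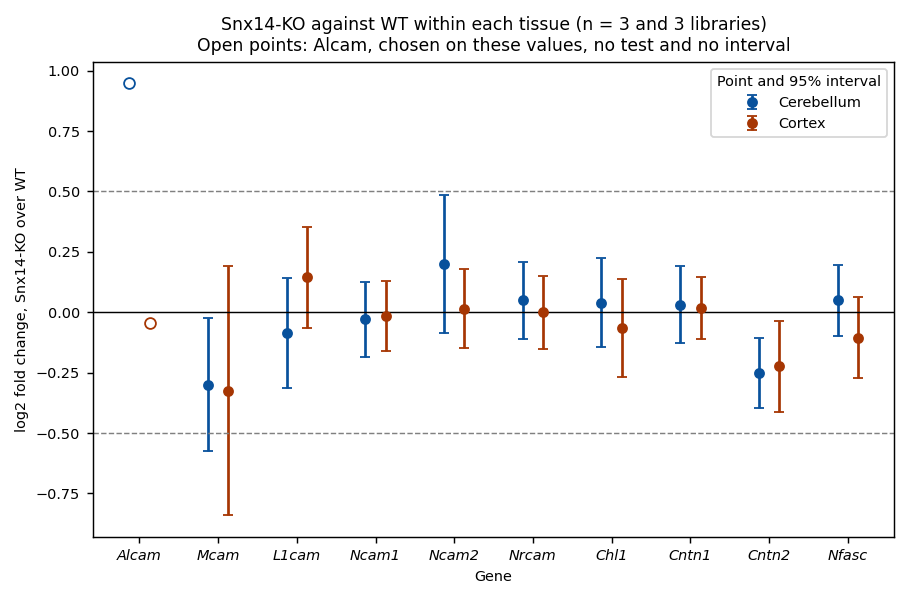
log2FC of *Snx14*-KO over WT (y axis) for each gene in cerebellum (blue) and cortex (brown), with 95% intervals from edgeR's quasi-likelihood fit for the 9 tested genes and open points without a test for *Alcam*. Dashed lines mark the size of 0.50 required for a call, and the tested points lie between -0.32 and 0.20.

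Counted over the 9 tested genes, 0 were called in *Snx14*-KO cerebella when a call needed an adjusted p below 0.05 together with a log2FC beyond 0.50 in either direction, by edgeR's quasi-likelihood test. The background was 0.00549% of 18201 genes called, which is *Snx14* itself. DESeq2 called 0 of the 9 as well, against 0.851% of all genes. At an unadjusted p under 0.05, *Mcam* and *Cntn2* were lower and 0 genes were higher, so 2 of 9 stand beside 8.15% of all genes in either direction and 2.37% lower. The libraries of the genotypes did not overlap for 1 of 9 genes, *Cntn2*, beside 12.5% of all genes in either direction and 6.32% lower. The 9 values ran from -0.30 to 0.20 with a median of 0.03, where the median of all tested genes was -0.0006. For 8 of the 9, the 95% interval lay within 0.50 on either side of 0. *Mcam* was the exception, with a lower bound of -0.57.

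In cortex, 0 of 9 genes were called by either tool, where the background was 0.00548% of 18255 genes for edgeR and 0.0502% for DESeq2. Only *Cntn2* had an unadjusted p under 0.05, lower in *Snx14*-KO mice, which is 1 of 9 beside 4.5% of all genes in either direction and 2.26% lower, and 0 of 9 had libraries without overlap, beside 9.24% of all genes. The values ran from -0.32 to 0.14, and 8 of the 9 intervals lay within 0.50 of 0. *Mcam* was again the exception, with an interval from -0.84 to 0.19. The difference of the knockout effect between the tissues was called for 0 of the 9 genes by edgeR, with 0 of 19380 genes as background (0%), and 0 of 9 had an unadjusted p under 0.05, beside 5.68% of all genes. DESeq2 called 0 of 9, beside 0.145% of all genes. The largest differences belonged to *L1cam*, at -0.24 (SE 0.154), *Ncam2*, at 0.17 (SE 0.155), and *Nfasc*, at 0.14 (SE 0.107). Without cortex *Snx14*-KO replicate 2, *L1cam* was at -0.13 and *Nfasc* at 0.075. *Ncam2* was at 0.097 without cerebellum WT replicate 1 and at 0.30 without cerebellum *Snx14*-KO replicate 2. Of the 9 intervals of this difference, 6 lay within 0.50 of 0. Those of *Mcam* (-0.66 to 0.68), *L1cam* (-0.57 to 0.08) and *Ncam2* (-0.16 to 0.50) reached past it. For *Cntn2* the difference was -0.04, with an interval from -0.29 to 0.20, and for *Cntn1* it was 0.00 to 2 decimals, with an interval from -0.18 to 0.18.

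Between the tissues, 6 of the 10 genes were called. This contrast, cerebellum against cortex averaged over the genotypes in all 12 libraries, did not choose *Alcam*, and so all 10 genes were tested. The fit treats the cerebellum and the cortex of a mouse as independent. With mouse as a block, no call among the 10 genes changed. The 6 calls stand beside 42.5% of 19380 genes, and 7 of 10 had no overlap between the 6 cerebella and the 6 cortices, beside 46.1% of all genes. *Alcam* had the largest difference, a log2FC of -1.59 (SE 0.0812, adjusted p = 2.29e-10 by edgeR's quasi-likelihood test), a ratio of 0.331 of cerebellum to cortex. In the WT libraries alone it was -2.08 (SE 0.0748).

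*Ncam2*, *Nrcam* and *L1cam* were also lower in cerebellum. *Ncam2* ran from 46.8 to 65.2 CPM in the 6 cerebella and from 110 to 129 CPM in the 6 cortices, giving a log2FC of -1.13 (SE 0.0780, adjusted p = 7.76e-09). *Nrcam* gave -1.01 (SE 0.050, adjusted p = 1.74e-10) and *L1cam* -0.80 (SE 0.0772, adjusted p = 3.12e-07). The genes called higher in cerebellum were *Mcam* and *Cntn2*. *Mcam* had a log2FC of 1.00 (SE 0.157, adjusted p = 5.33e-05), and *Cntn2* had 0.84 (SE 0.0580, adjusted p = 7.71e-09), with every cerebellum at 181 CPM or more and every cortex at 139 CPM or less.

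The remaining 4 genes lay closer to 0. *Cntn1* was lower in cerebellum at -0.24 (SE 0.0426, adjusted p = 0.000147), and its 6 cerebella lay below its 6 cortices, but the difference was under the size required for a call. *Nfasc* at 0.18 (adjusted p = 0.00963) and *Ncam1* at 0.13 (adjusted p = 0.0214) also passed the adjusted p without reaching that size. *Chl1* differed by -0.08, with an interval from -0.22 to 0.07 (adjusted p = 0.324), and by -0.13 without cortex *Snx14*-KO replicate 1 and -0.046 without cortex *Snx14*-KO replicate 2. The L1 group was thus split, with *Nrcam* and *L1cam* called lower in cerebellum and *Nfasc* and *Chl1* not called, and so were the contactins.

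**Figure D5:**
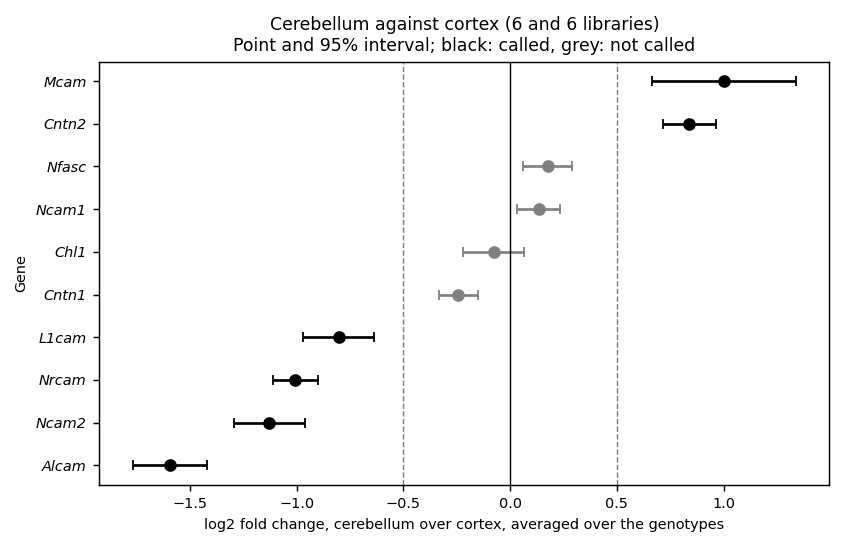
log2FC of cerebellum over cortex averaged over the genotypes (x axis) with 95% intervals for the 10 genes, from 6 cerebellum and 6 cortex libraries. *Alcam*, *Ncam2*, *Nrcam* and *L1cam* lie below -0.50, *Mcam* and *Cntn2* lie above 0.50, and the 4 genes in grey were not called.

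Likeness to *Alcam* was described by Pearson's r of log2 CPM among 17058 genes, without a test, because the libraries of a tissue share that tissue and, in cerebellum, the values that chose the gene. Over the 12 libraries, the 8 most similar genes were *St8sia4* (r = 0.993), *Npy1r* (r = 0.990), *Gm26883* (r = 0.988), *Ildr2*, *Vill*, *Vsig2* (each r = 0.987), *Tshz2* and *Necab2* (each r = 0.986). These genes were all more abundant in cortex. *St8sia4*, which encodes a polysialyltransferase that modifies NCAM1, was at 6.69 ± 0.714 CPM in WT and 9.66 ± 1.64 CPM in *Snx14*-KO cerebella and at 18.5 ± 0.463 and 17.5 ± 1.96 CPM in the cortices (SD, n = 3 each). *Npy1r*, a receptor for neuropeptide Y, was at 0.654 ± 0.301 and 4.11 ± 2.06 CPM in cerebellum and at 27.5 ± 5.48 and 30.4 ± 2.18 CPM in cortex (SD, n = 3 each). *Vill* and *Vsig2* were at 0.224 and 0.225 CPM in WT cerebella, and their values there rest on few reads. Among the family members, *Ncam2* had r = 0.950, *Nrcam* 0.931 and *Cntn1* 0.906 over the 12 libraries, while *Cntn2* had -0.949 and *Mcam* -0.863.

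Within the 6 cerebella, the 5 most similar genes were *Plcxd1* (r = 0.992), *Col5a2*, *Tmem229a* (each r = 0.990), *Pfn2* (r = 0.989) and *Slc38a4* (r = 0.988). *Col5a2*, a chain of fibrillar collagen, was at 5.09 ± 0.555 CPM in WT and 8.91 ± 1.29 CPM in *Snx14*-KO cerebella, and *Pfn2*, a neuronal profilin that binds actin, at 265 ± 5.99 and 292 ± 11.1 CPM (SD, n = 3 each). *Slc38a4* was at 0.0749 CPM in WT and 0.777 CPM in *Snx14*-KO cerebella and also rests on few reads. It met the required mean of 1 CPM over the 12 libraries only through cortex, at 1.89 CPM in WT and 1.72 CPM in *Snx14*-KO mice. *Cntn2* stood at the opposite end with r = -0.943 over these 6 libraries, and *Mcam* had -0.792. Over the 6 cortices *Cntn2* had r = -0.03 and *Mcam* -0.544, while *Chl1* had 0.899 and *Ncam2* 0.884. Each of these values rests on only 6 libraries.

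Beyond the 10 genes, 93 further genes of the pathway were examined in 3 lists. In cerebellum, 0 of 48 tested relatives with immunoglobulin domains were called by edgeR, and 7 were higher and 2 lower at an unadjusted p under 0.05, where 5.78% of all genes were higher and 2.37% lower. The median log2FC of the relatives was 0.03. The smallest p belonged to *Sdk1*, a homophilic molecule of synaptic layers, which was at 3.25 ± 1.18 CPM in WT and 7.21 ± 1.1 CPM in *Snx14*-KO cerebella (SD, n = 3 each), a log2FC of 1.17 (SE 0.256, adjusted p = 0.211). DESeq2 called it, as the only one of the relatives, at 1.15 (adjusted p = 0.0117). On the lower side the smallest p belonged to *Nectin4*, at 18.6 ± 1.45 and 14.5 ± 0.730 CPM (SD, n = 3 each), a log2FC of -0.34 (adjusted p = 0.430 by edgeR). Without *Snx14*-KO replicate 2, edgeR called *Icam5* (1.72), *Robo1* (0.69), *Cntnap5a* (1.16) and *Ncan* (0.67) higher, 4 genes named after their values were seen. In that fit 1.31% of 18649 genes were called higher, against 0 in the fit of all 6 libraries. The 2 libraries left in that fit are those with the tectal markers, whose part in these calls was not tested.

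Of 29 tested ligands and partners, 0 were called in cerebellum, 6 were higher and 0 lower at an unadjusted p under 0.05, beside 5.78% and 2.37% of all genes, and the median was 0.06. *Lama4*, a laminin chain of vascular basement membrane, had the smallest p on the higher side, at 3.90 ± 0.463 CPM in WT and 6.66 ± 0.939 CPM in *Snx14*-KO cerebella (SD, n = 3 each), a log2FC of 0.79 (SE 0.180, adjusted p = 0.232). *Cntnap1*, the paranodal partner of contactin-1, had the smallest on the lower side, at -0.16 (adjusted p = 0.729). *Cd6*, the receptor that binds ALCAM, was too low in cerebellum to be tested, at 0.0742 CPM in WT and 0.0524 CPM in *Snx14*-KO mice. Of 9 tested sheddases and modifying enzymes, 0 were called and 1 was higher at an unadjusted p under 0.05, beside the same 5.78%, with a median of 0.25. In cortex, 0 of 90 tested genes of the 3 lists were called by either tool, and 4 were higher and 0 lower at an unadjusted p under 0.05, beside 2.24% and 2.26% of all genes. The smallest p values were those of *Robo2*, a Slit receptor, at a log2FC of 0.20, and *Nectin1* at -0.17 among the relatives. Among the partners they were those of *Lama5* at 0.41 and the GDNF receptor gene *Gfra1* at -0.19, all with an adjusted p of 0.996.

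For the difference of the knockout effect between the tissues, 0 of 91 tested genes of the 3 lists were called by either tool, and 9 were higher and 1 lower at an unadjusted p under 0.05, beside 3.97% and 1.71% of all genes. The smallest p values among the relatives belonged to *Icam5*, telencephalin of forebrain neurons, at 1.29 (adjusted p = 0.490 by edgeR), and to *Cadm3*, a synaptic adhesion molecule, at -0.41 (adjusted p = 0.587). *Cadm3* was at 589 ± 59.1 and 484 ± 50.7 CPM in WT and *Snx14*-KO cerebella and at 411 ± 11.8 and 447 ± 46.5 CPM in the cortices (SD, n = 3 each). Among the partners they belonged to *Cntnap3* and to *Cntnap1*, the latter at -0.20 (adjusted p = 0.963). *Cntnap3* was too low in cerebellum to be tested there, at 0.0185 CPM in WT and 0.188 CPM in *Snx14*-KO mice, and entered this fit through cortex, so no difference is given for it. Averaged over both tissues, 0 of the 91 were called by edgeR and 16 were higher and 1 lower at an unadjusted p under 0.05, beside 5.96% and 3.29% of all genes, while DESeq2 called *Sdk1* and *Cntn5* higher, the latter named after its values were seen. Over all genes, 0.0464% were called by edgeR and 0.669% by DESeq2. By edgeR, *Sdk1* had an averaged log2FC of 0.75 (SE 0.151, adjusted p = 0.0873), *Nectin1* -0.17 (adjusted p = 0.443), and *Lama4* 0.50 (adjusted p = 0.225). *Gdnf* had the smallest p on the lower side among the partners (adjusted p = 0.749), but it was too low in cortex to be tested there.

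In the tissue contrast, members of the 3 lists were called in both directions. Of 50 tested relatives, 12 were called higher and 19 lower in cerebellum, and of 32 ligands and partners 8 were called higher and 15 lower. Over all tested genes, 20.5% were called higher and 22% lower. The relatives named on the lower side were *Icam5* (-6.44), *Robo3* and *Icam4*. *Robo3* and *Icam4* were too low in cerebellum to be tested there and entered the fit through cortex, so they are given by level. *Robo3* was at 0.463 CPM in WT cerebella and 16.8 CPM in WT cortices, and *Icam4* at 0.0934 and 1.45 CPM. On the higher side the relatives were *Nectin4* (2.08), *Kirrel* (1.80) and *Kirrel3* (1.70). *Kirrel3* was at 142 ± 2.65 CPM in WT cerebella and 41.0 ± 3.91 CPM in WT cortices (SD, n = 3 each). Among the partners, the proteoglycan gene *Ncan* (-3.28) was lower in cerebellum, and *Tnc* (2.77), the tenascin-C gene, and *Msn* (1.62), the moesin gene, were higher. *Cntnap3*, *Cd6* and *Gdnf* were also called, the first pair lower and *Gdnf* higher, but each passed the filter in only the tissue where it was more abundant. *Cntnap3* was at 13.3 CPM in WT cortices, and *Gdnf* was under 1 CPM in all groups on average. *Cd6* was at 2.78 ± 0.900 CPM in WT and 2.55 ± 1.31 CPM in *Snx14*-KO cortices (SD, n = 3 each). Of 9 sheddases and modifying enzymes, 2 were called higher and 1 lower, the latter being *St8sia4* at -1.16 (adjusted p = 6.93e-08 by edgeR).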

How the data were processed

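RNA was extracted from dissected cerebellum and cerebral cortex of 1-month-old mice and sequenced by RNA-Seq. The authors aligned the trimmed read pairs to GRCm38 using STAR, counted them on genes with featureCounts (Subread 2.0.1 per the submitters' processing notes), without regard to strand and for each gene that a pair overlapped, and deposited the counts without normalization. The 10 genes and the gene lists were chosen with earlier results of these data known. The thresholds for a call, 0.05 for the adjusted p and 0.50 for the size of the log2 fold change, are those of the paper.

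The counts were tested with edgeR 4.0.16 (R 4.3.3; quasi-likelihood test, TMM, filterByExpr, Benjamini-Hochberg adjustment over all genes tested) within each tissue, and in 1 fit of all 12 libraries for contrasts between tissues. All 10 genes passed the filter in every fit. DESeq2 1.42.0 was an alternative, as were its size factors, no filter on low counts, each library left out, and a block. The scripts were tested on simulated data. CPM are TMM-normalized over the 12 libraries, and log2 CPM have a prior count of 2. Named genes of the lists are those with the largest called changes, or the smallest p in a direction without a call.

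The summed counts per library ranged from 16672589 to 19887427. The number of a mouse is the same for its cerebellum and cortex, whose deviations from the group means correlated at 0.105 to 0.166 in WT and 0.0478 to 0.389 in *Snx14*-KO mice. Mouse was a block only in an alternative run. The main fits of all 12 libraries had no block and treat both tissues of a mouse as independent, so their p values may be too small. WT and *Snx14*-KO mice of the same number are different animals. No libraries were identical. Within a tissue, the p values measure the spread between these mice, 3 per group. The 26248 numbered features in the files, with 0.0506% to 0.0632% of the counts, were left out.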

Additional observations from a re-analysis of the deposited data

How the results depend on the processing

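The counts of called adhesion genes stayed the same in every alternative run: 0 of 9 for *Snx14*-KO against WT in each tissue and for the difference between the tissues, and 2 higher and 4 lower of 10 for cerebellum against cortex. With the replicate block, which for genotypes joins different mice of the same number (replicate 1 female, replicates 2 and 3 male by *Xist* and *Ddx3y*), *Cntn2* in cerebellum had a log2 fold change of -0.25 (adjusted p = 0.397 by edgeR), and no call among the 10 genes changed with either block. Of the relatives and partners, the number called higher in *Snx14*-KO cerebella was 0, and it became 1 with DESeq2, 4 without the filter on low counts (*Cntn5*, *Sdk1*, *Icam5* and *Cntnap5a*), and 0 to 4 with a library left out. Over all genes, 0 were called higher in the main fit, 167 of 20920 with DESeq2 and 329 of 31465 without the filter. Without *Snx14*-KO replicate 2, the setting that gave 4, 244 of 18649 were called higher. *Cntn5* and *Icam5* were low in WT cerebella, at 0.618 and 1.45 CPM. *Alcam* in cerebellum ran from 0.79 to 1.05 with a library left out and was 0.68 for *Snx14*-KO replicate 2 alone, and its difference between the tissues was 1.15 without *Snx14*-KO mouse 2 and 0.72 without the cerebella of *Snx14*-KO mice 1 and 3. The settings that leave out several libraries were chosen after seeing the data.

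Of the uncalled values, those near 0 changed sign in some settings. With a library left out, cerebellum gave -0.060 to 0.018 for *Ncam1*, -0.014 to 0.096 for *Chl1* and -0.016 to 0.070 for *Cntn1*. Cortex gave -0.052 to 0.018 for *Ncam1*, -0.022 to 0.083 for *Ncam2*, -0.045 to 0.050 for *Nrcam*, -0.13 to 0.030 for *Chl1* and -0.00056 to 0.037 for *Cntn1*, and for *Alcam*, which was not tested, -0.11 to 0.030. The difference between the tissues gave -0.27 to 0.26 for *Mcam*, -0.064 to 0.028 for *Ncam1*, -0.018 to 0.082 for *Nrcam*, -0.0078 to 0.15 for *Chl1*, -0.034 to 0.046 for *Cntn1* and -0.14 to 0.022 for *Cntn2*. *Snx14*-KO replicate 2 alone gave -0.11 for *Ncam2*, -0.057 for *Nrcam* and -0.071 for *Cntn1* in cerebellum. Without the cerebella of *Snx14*-KO mice 1 and 3 the difference between the tissues was -0.14 for *Ncam2* and -0.066 for *Nrcam*, and without *Snx14*-KO mouse 2 it was -0.28 for *Mcam* and 0.037 for *Cntn1*. DESeq2 gave 0.00084 for *Nrcam* in cortex. For the difference in *Cntn1* it gave 7.48e-05, its size factors gave 0.0011 and no filter gave 0.0071. Other uncalled values kept their sign with a library left out but moved by over 1.5 times: -0.39 to -0.19 for *Mcam*, -0.19 to -0.012 for *L1cam*, 0.11 to 0.32 for *Ncam2*, 0.0087 to 0.089 for *Nrcam* and 0.0089 to 0.091 for *Nfasc* in cerebellum, and -0.58 to -0.051 for *Mcam*, 0.028 to 0.21 for *L1cam*, -0.29 to -0.13 for *Cntn2* and -0.15 to -0.043 for *Nfasc* in cortex. The cause was not tested. With 3 mice per group, the 95% interval of *Mcam* reached below -0.50 in both tissues.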
